A study of Mus musculus with 7 samples.

Results

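Ccl5, Ccl3 and Ccl4 encode CC chemokines and lie together on mouse chromosome 11. The members were chosen by position: the 3 genes and all DNA from 83320001 to 83500000 on chromosome 11 of genome build mm9, a stretch of 180 kb. It holds 180 bins of 1 kb, of 2638950 in the genome, and 900 windows of 200 bp, of 13194707. Ccl5 spans about 83339000 to 83344000, Ccl3 about 83461000 to 83463000 and Ccl4 about 83476000 to 83478000, positions that are good to the nearest kb. Ccl5 and Ccl3 lie on the minus strand and Ccl4 on the plus strand, so Ccl3 and Ccl4 start 13 kb apart and point away from each other. A neighbourhood was counted for each gene, its interval with 5 kb on either side: 83334001 to 83349000 for Ccl5, 83456001 to 83468000 for Ccl3 and 83471001 to 83483000 for Ccl4. No exon or intron was assigned to a read, because no mm9 annotation was used. In the RefSeq order of genes on GRCm38.p6, Ccl16-ps, Ccl9, E230016K23Rik, Ccl6, Gm38933 and Rpl9-ps1 stand between Ccl5 and Ccl3. The reads of those genes were not analysed here.

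The reads come from chromatin immunoprecipitation and sequencing (ChIP-seq) of BRG1 with the J1 antibody in Balb/c mouse CD4+ T helper cells. Stimulated Th17, Th1 and Th2 cells had received PMA at 50 ng/ml with ionomycin at 500 ng/ml for 1.5 h, which mimics signalling through the T cell receptor. Resting Th1 and Th2 cells were left without it, and the naive cells came straight from the mouse. Every culture began with CD4+CD62L+ cells, 95% pure, of spleens and lymph nodes of mice aged 4 to 6 weeks, the same kind of cell as the naive library. Th17 cultures held 100 ng/ml of IL-6, 10 ng/ml of IL-1β and 1 ng/ml of TGF-β with antibodies to IL-4 and IFNγ, and were expanded in 10 ng/ml of IL-23. Th1 cultures held IL-12 at 1 ng/ml with anti-IL-4, and Th2 cultures IL-4 at 10 ng/ml with anti-IFNγ, and both were expanded in IL-2. All cultures received anti-CD3 and anti-CD28, in solution for Th17 and on the plate for Th1 and Th2. The labels describe no sort of the finished cultures, so a subset name stands for a culture condition, and bound DNA carries no expression marker against which to check it. The input library is DNA without immunoprecipitation. Each group has 1 library, 6 for BRG1 and 1 for input, so every ratio compares libraries and not conditions, and no p-value is given.

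CC chemokines are small secreted proteins that draw leukocytes through receptors on their surface. CCL3 is also known as MIP-1α, CCL4 as MIP-1β and CCL5 as RANTES. Activated T cells make all of them, and CCL5 is known as a product of effector and memory T cells that appears late after activation. BRG1 uses ATP to move or evict nucleosomes as the motor of SWI/SNF complexes, which are recruited to promoters and enhancers.

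The RefSeq table of promoters, on GRCm38.p6, held 1 of the 3 members, Ccl3. Its 300 bases, from 250 before the gene start to 50 from the start on, are shown because the reads around the gene starts are compared below. The window lies on chromosome 11, 83649329 to 83649628 of GRCm38.p6, minus strand. These coordinates do not apply to the mm9 reads. Capitals mark motif matches.
Ccl3 promoter: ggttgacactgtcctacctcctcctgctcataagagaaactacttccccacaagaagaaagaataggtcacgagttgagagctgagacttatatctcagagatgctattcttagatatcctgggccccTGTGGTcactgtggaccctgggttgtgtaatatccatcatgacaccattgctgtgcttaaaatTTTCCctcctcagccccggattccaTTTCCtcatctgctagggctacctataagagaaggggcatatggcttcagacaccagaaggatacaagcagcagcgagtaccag
Both strands were searched for 7 motifs. TGTGGT, the core of RUNX sites, occurs 1 time, 122 bases before the start, and 16.8% of the 32851 promoters in the table hold it. GGAAA, the core of NFAT sites, reads on the opposite strand as the capitals 59 and 34 bases before the start, and 61.3% of promoters hold it. The window held no match to TGANTCA (AP-1, in 7.81% of promoters), TTCNNNGAA (STAT, 8.3%), the NF-kB consensus (4.51%), TGACGTCA (CRE, 1.79%) or TCACACCT (T-box, 1.28%). A match is a string of letters and not a measured site.

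Depth differed between the libraries. After 1 read was kept per start and strand, 7892944 reads remained in stimulated Th17, 3917492 and 4261900 in stimulated Th1 and Th2, 1808000 and 1340208 in resting Th1 and Th2, 2071800 in naive and 3531867 in input. Of the deposited reads, 10.2 to 11.8% in stimulated libraries and 28.5 to 41.4% in the unstimulated ones repeated a position. Levels are given as RPM, reads per 1000000 distinct reads, and the floor of 3 reads, used where a count was 0, stands for 0.38 RPM in stimulated Th17 and 2.24 RPM in resting Th2. The 95% interval of a count of 0 reaches higher, to 2.75 RPM in resting Th2, so an exact lower bound is given beside each fold computed against the floor. Intervals are 95% exact (Clopper-Pearson) intervals. They cover counting error only: the reads carry no molecular identifiers, so PCR copies cannot be told from independent molecules. In these bulk libraries, fewer cells with BRG1 at a site and less BRG1 per cell cannot be told apart.

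Across the 180 kb, stimulated Th1 had the highest density of BRG1 reads, and naive and resting Th2 had the lowest, at a ratio of resting Th2 over naive of 1.01 (0.789 to 1.29). The reads numbered 966 in stimulated Th17, 780 in stimulated Th1 cells, 538 in stimulated Th2, 235 in resting Th1, 110 in resting Th2, 168 in naive and 384 in input. That is 122, 199, 126, 130, 82.1, 81.1 and 109 RPM in the same order. Relative to input the ratio was 1.83 in stimulated Th1 (1.62 to 2.07) and 0.746 in naive (0.618 to 0.896), and in stimulated Th17 it was 1.13 (0.999 to 1.27). The 3 gene neighbourhoods make up 21.7% of the length. They held 35.2% of the reads of stimulated Th17, 36.8% of stimulated Th1, 28.6% of stimulated Th2, 30.2% of resting Th1, 20.9% of resting Th2, 20.8% of naive and 23.2% of input. The summed share in resting Th2, naive and input was thus close to the share of length, and in the other 4 libraries it was higher. Within that sum the genes of resting Th2 differed, with 10.9% of its reads at Ccl3, 5.45% at Ccl5 and 4.55% at Ccl4. Those shares rest on 12, 6 and 5 reads.

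**Figure D1:**
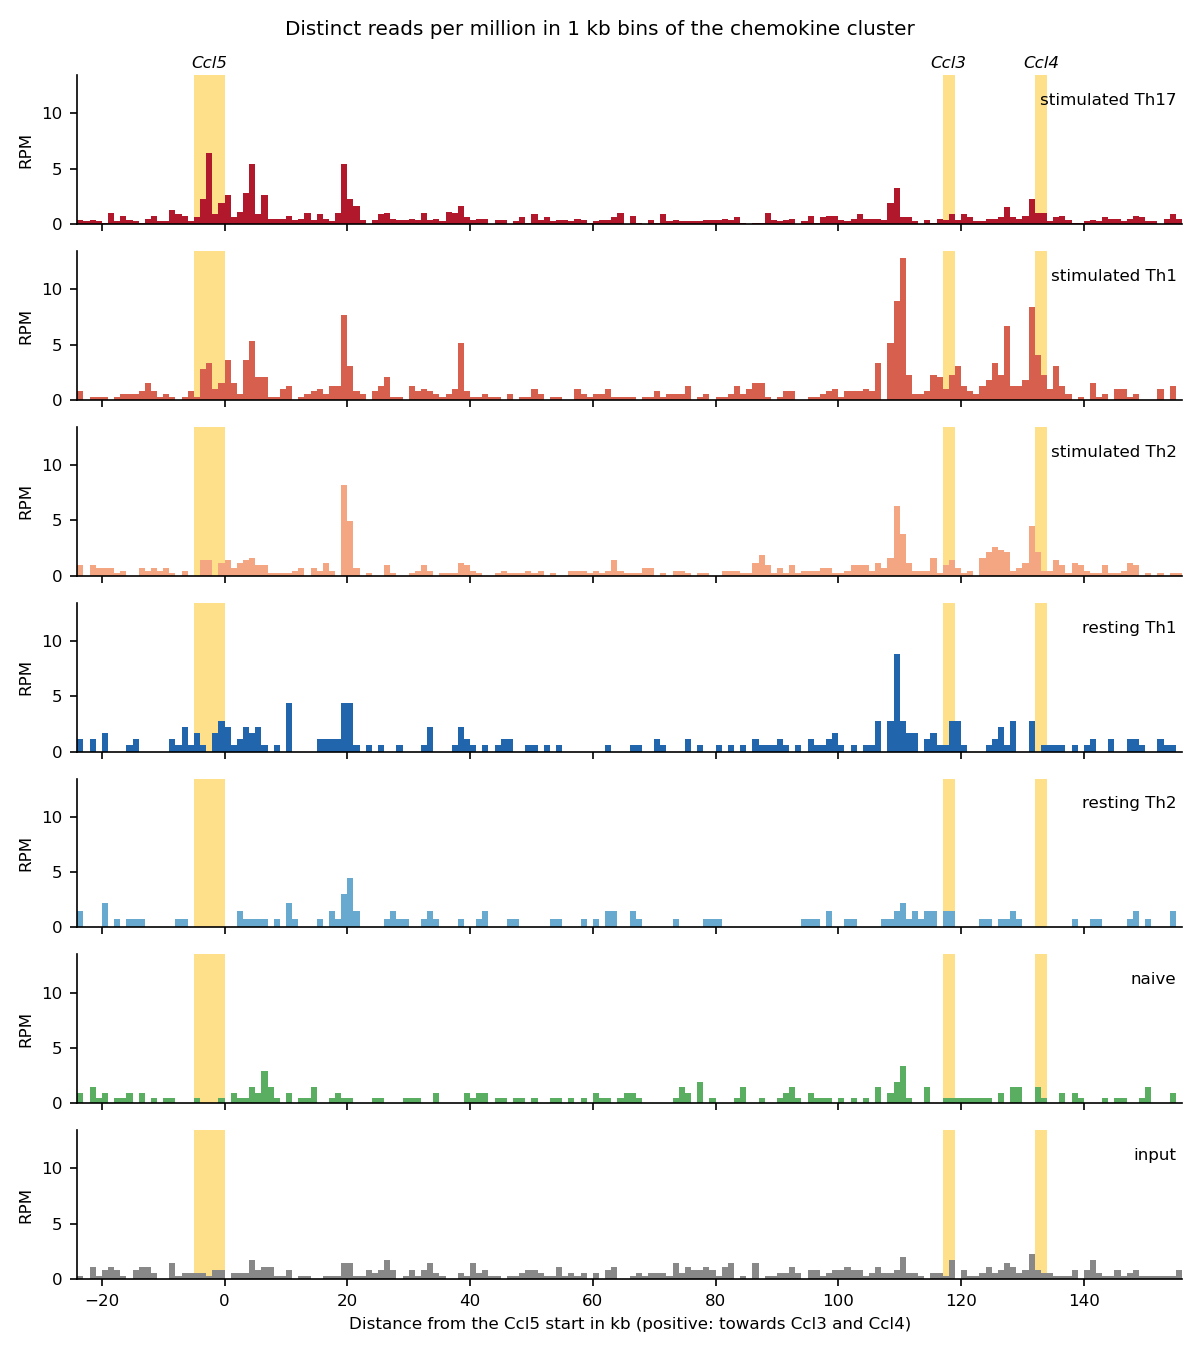
RPM in each 1 kb bin of the 180 kb, with a panel for each library and distance along the cluster on the x axis. Shading marks the 3 gene intervals; stimulated Th17 is tallest in the body of Ccl5 and stimulated Th1 beside Ccl3, with 51 and 50 reads in those bins.

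Reads were gathered at a few places. The fullest 1 kb bin of stimulated Th17 lay in the body of Ccl5, from 83341001, with 51 reads. That of stimulated Th1 began at 83454001, past the end of Ccl3, with 50 reads, and that of stimulated Th2 at 83363001, before Ccl5, with 35. In resting Th1 it began at 83453001 with 16 reads. In resting Th2, naive and input no bin held more than 8. The fullest bin of input, with 8 reads, began at 83475001, at the start of Ccl4. The 5 fullest bins held 19.2% of the cluster's reads in stimulated Th17, 22.3% in stimulated Th1 cells, 21.9% in stimulated Th2 and 8.59% in input.

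Per kb of neighbourhood, Ccl5 carried the most BRG1 reads of the 3 genes in stimulated Th17, with 1.88 RPM per kb against 0.412 at Ccl3 and 0.824 at Ccl4. Its neighbourhood held 223 reads (28.3 RPM) in stimulated Th17, 99 (25.3 RPM) in stimulated Th1, 50 (11.7 RPM) in stimulated Th2, 34 (18.8 RPM) in resting Th1, 6 (4.48 RPM) in resting Th2, 11 (5.31 RPM) in naive and 33 (9.34 RPM) in input. Stimulated Th17, stimulated Th1 and resting Th1 stood above input, at 3.02 (2.09 to 4.5), 2.7 (1.81 to 4.14) and 2.01 (1.21 to 3.35) times its level. Stimulated Th2 was at 1.26 (0.793 to 2.01), resting Th2 at 0.479 (0.164 to 1.16) and naive at 0.568 (0.259 to 1.15). Of all genome tiles of the same length with enough reads, 2.04% stood as high over input in stimulated Th17, 3.18% in stimulated Th1 and 5.83% in resting Th1. The share was 16.3% in stimulated Th2, 75.3% in resting Th2 and 85.3% in naive. The median tile lay below input in every BRG1 library, from 0.572 in stimulated Th17 to 0.947 in naive. In the order of levels, resting Th1 lay above stimulated Th2 by 1.6 (1.01 to 2.53), and no other step between neighbours in that order had an interval that left out 1.

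Between subsets, Ccl5 was higher in Th1 than in Th2, at rest and after stimulation, and higher in Th17 than in Th2. In resting Th1 its level was 4.2 times that in resting Th2 (1.74 to 12.2), and 3.54 times that in naive (1.75 to 7.75). Among genome tiles, 2.45% and 0.66% had ratios as high in those comparisons. With flanks of 2 kb in place of 5 kb the first ratio was 16.3, with a wide interval (2.64 to 673). In the 10 kb before the start alone it was 2.12 (0.86 to 5.93), and the ratio to naive was 1.21 (0.611 to 2.39). Resting Th2 was at 0.843 of naive (0.256 to 2.49). After stimulation, Ccl5 was 2.15 times as high in Th1 as in Th2 (1.52 to 3.09), and in Th17 2.41 times as high as in Th2 (1.77 to 3.34). Stimulated Th17 and stimulated Th1 did not separate at a ratio of 1.12 (0.878 to 1.43), but with repeated reads kept the ratio was 1.26 (1.01 to 1.6).

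Stimulation left Ccl5 in Th1 at a ratio to rest of 1.34 (0.902 to 2.05), and 21.1% of tiles had one as high. In Th2 the ratio of stimulated to resting was 2.62 (1.12 to 7.48), from 50 reads against 6, with 6.91% of tiles as high. Both values depended on the processing. Divided by the median ratio of all tested 1 kb bins they were 0.832 (0.558 to 1.27) in Th1 and 2 (0.857 to 5.71) in Th2. In Th1 the ratio was 1.59 (1.07 to 2.42) on the scale of 10 kb bins without called windows and 1.82 (1.11 to 3.14) in the 10 kb before the start alone. In Th2 it was 1.71 (0.753 to 4.53) in those 10 kb and 2.33 (0.842 to 7.41) at equal depth. The resting Th1 reads lay partly at the gene start. The 2 kb around it held 36 reads in stimulated Th17, 20 in stimulated Th1 cells and 11 in stimulated Th2. There were 9 in resting Th1, 0 in resting Th2, 1 in naive and 3 in input. Per depth this was 4.56 RPM in stimulated Th17, 5.11 in stimulated Th1 and 4.98 in resting Th1. Stimulated over resting Th1 was 1.03 at the start (0.446 to 2.56), and 69% of 2 kb tiles had a ratio as high. Only tiles with at least 10 reads in the pair were counted, and their median was 1.44.

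**Figure D2:**
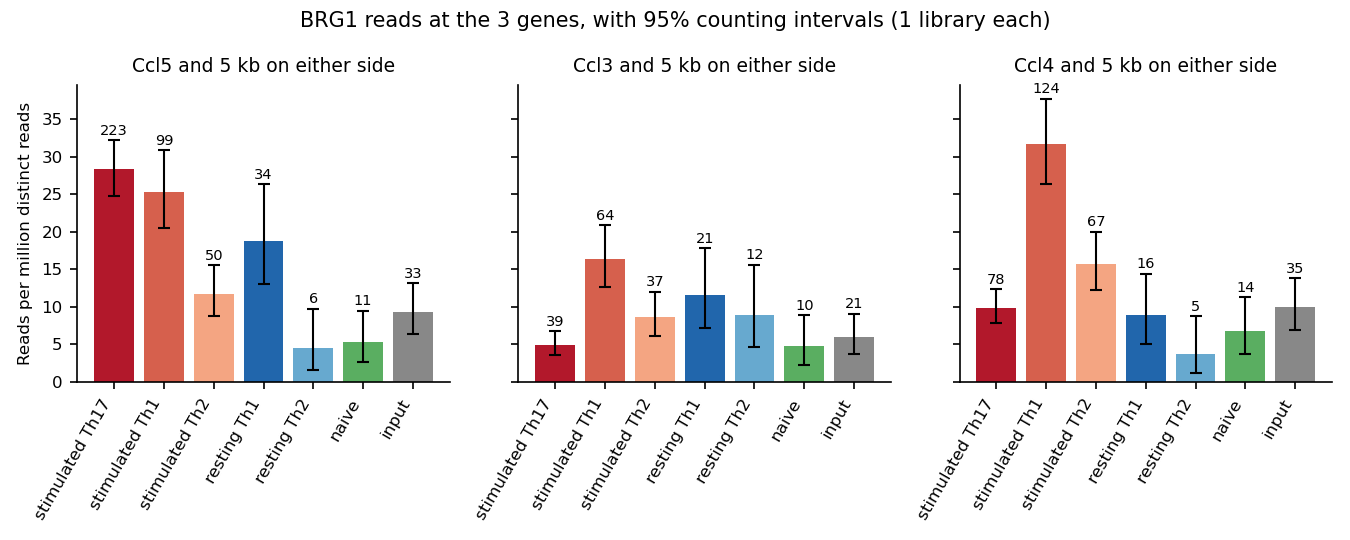
RPM in the neighbourhoods of Ccl5 (15 kb), Ccl3 (12 kb) and Ccl4 (12 kb), with a bar for each library and its 95% exact counting interval. Stimulated Th17 is highest at Ccl5, with 28.3 RPM, and stimulated Th1 is highest at Ccl3 and Ccl4, with 16.3 and 31.7 RPM.

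At Ccl4, stimulated Th1 and Th2 cells had more BRG1 reads than the resting cells of the same subset. Its neighbourhood held 78 reads (9.88 RPM) in stimulated Th17, 124 (31.7 RPM) in stimulated Th1, 67 (15.7 RPM) in stimulated Th2, 16 (8.85 RPM) in resting Th1, 5 (3.73 RPM) in resting Th2, 14 (6.76 RPM) in naive and 35 (9.91 RPM) in input. Stimulated Th1 and stimulated Th2 stood above input, at 3.19 (2.18 to 4.79) and 1.59 (1.04 to 2.46) times its level. Stimulated Th17 was level with input, at 0.997 (0.661 to 1.53), and resting Th2 was below it, at 0.376 (0.115 to 0.965). In the order of levels, the steps from stimulated Th1 to stimulated Th2 and from stimulated Th2 to input had intervals that left out 1, and the steps below them did not.

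Stimulated Th1 was 3.58 times as high as resting Th1 at Ccl4 (2.12 to 6.45), and stimulated Th2 4.21 times as high as resting Th2 (1.72 to 13.4). Only 2.44% of genome tiles in Th1 and 2.82% in Th2 had ratios as high, and the median tile was at 0.824 and 0.943. Divided by the median ratio of tested bins, the Ccl4 ratios were 2.21 (1.31 to 3.99) and 3.22 (1.31 to 10.2). The resting libraries were shallower and held more repeated positions; at equal depth the ratios were 3.08 (1.61 to 6.27) and 3.8 (1.37 to 13), and with repeated reads kept 3.9 (2.45 to 6.49) and 4.57 (2.11 to 11.8). The 2 kb around the start of Ccl4 held 26 reads in stimulated Th17, 49 in stimulated Th1 cells, 28 in stimulated Th2, 5 in resting Th1, 0 in resting Th2, 3 in naive and 11 in input. Over input this was 4.02 in stimulated Th1 (2.06 to 8.57), 2.11 in stimulated Th2 (1.02 to 4.7) and 1.06 in stimulated Th17 (0.505 to 2.37). In resting Th1 it was 0.888 (0.242 to 2.77). At that start the ratio of stimulated to resting was 4.52 in Th1 (1.81 to 14.5). In Th2 it was at least 2.93, computed against a floor of 3 reads, with an exact lower bound of 2.23. Among 2 kb tiles 14.4% had a ratio as high in Th1, where the median tile was at 1.44. That share cannot be set beside the one of the neighbourhood, because the tiles passed the minimum of 10 reads unequally. In Th1, 94295 tiles of 2 kb and 162171 tiles of 12 kb were tested. In Th2, 5.62% of tested tiles also had 0 resting reads. Between unstimulated libraries, the intervals at Ccl4 took in 1. The ratio was 1.31 for resting Th1 over naive (0.599 to 2.9), 0.552 for resting Th2 over naive (0.156 to 1.62) and 2.37 for resting Th1 over resting Th2 (0.83 to 8.28). This depended on the processing: with repeated reads kept the last 2 were 0.418 (0.154 to 0.979) and 2.51 (1.03 to 6.99), and with flanks of 2 kb resting Th1 had 8 reads against 0 in resting Th2, an exact lower bound of 1.27.

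Among stimulated cells, Ccl4 was highest in Th1 and lowest in Th17. The ratio was 0.312 for Th17 over Th1 (0.232 to 0.418), 0.629 for Th17 over Th2 (0.448 to 0.885) and 2.01 for Th1 over Th2 (1.48 to 2.75). Of genome tiles, 3.9% had a ratio as low for Th17 over Th1, 24.7% for Th17 over Th2 and 6.04% had one as high for Th1 over Th2. The value of Th17 over Th2 was therefore not rare in the genome.

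Ccl3 had more BRG1 reads than input in Th1 cells, both stimulated and resting. Its neighbourhood held 39 reads (4.94 RPM) in stimulated Th17, 64 (16.3 RPM) in stimulated Th1, 37 (8.68 RPM) in stimulated Th2, 21 (11.6 RPM) in resting Th1, 12 (8.95 RPM) in resting Th2, 10 (4.83 RPM) in naive and 21 (5.95 RPM) in input. Over input, stimulated Th1 was at 2.75 (1.66 to 4.74) and resting Th1 at 1.95 (1.02 to 3.76), and the intervals of the other 4 BRG1 libraries took in 1. Genome tiles of the same length stood as high over input in 3.34% of cases in stimulated Th1 and 8.76% in resting Th1. The share was 35.2% in stimulated Th17, 13% in stimulated Th2, 15.9% in resting Th2 and 60.4% in naive. The median tile lay below input in every BRG1 library, from 0.59 in stimulated Th17 to 0.938 in naive. No step between neighbours in the order of levels was separable. The 2 kb around its start held 10 reads in stimulated Th17, 21 in stimulated Th1 cells, 9 in stimulated Th2, 10 in resting Th1, 2 in resting Th2, 2 in naive and 6 in input.

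At Ccl3, whether stimulated cells stood above resting ones depended on the processing and on the stretch counted. The ratio of stimulated to resting was 1.41 in Th1 (0.848 to 2.42) and 0.97 in Th2 (0.495 to 2.04), intervals that take in 1 and still allow a doubling in either subset. With repeated reads kept the Th1 ratio was 1.65 (1.03 to 2.71). In the 10 kb before the start alone the ratio was 2.11 in Th1 (1.28 to 3.68) and 2.83 in Th2 (1.22 to 8.05). In the 2 kb around the start it was 0.969 in Th1 (0.437 to 2.3) and 1.42 in Th2 (0.293 to 13.5). Divided by the median ratio of tested bins, the neighbourhood ratio was 0.871 in Th1 (0.525 to 1.5) and 0.74 in Th2 (0.377 to 1.56). Among stimulated cells Ccl3 had the same order as Ccl4. It was at 0.302 in Th17 over Th1 (0.198 to 0.457), 0.569 in Th17 over Th2 (0.354 to 0.918) and 1.88 in Th1 over Th2 (1.24 to 2.9), and 3.47%, 21% and 8.21% of genome tiles were as extreme in the same direction. In resting Th1 it was 2.41 times as high as in naive (1.08 to 5.72), from 21 reads against 10, and 1.75 (0.789 to 4.16) after division by the median ratio of tested bins.

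**Figure D3:**
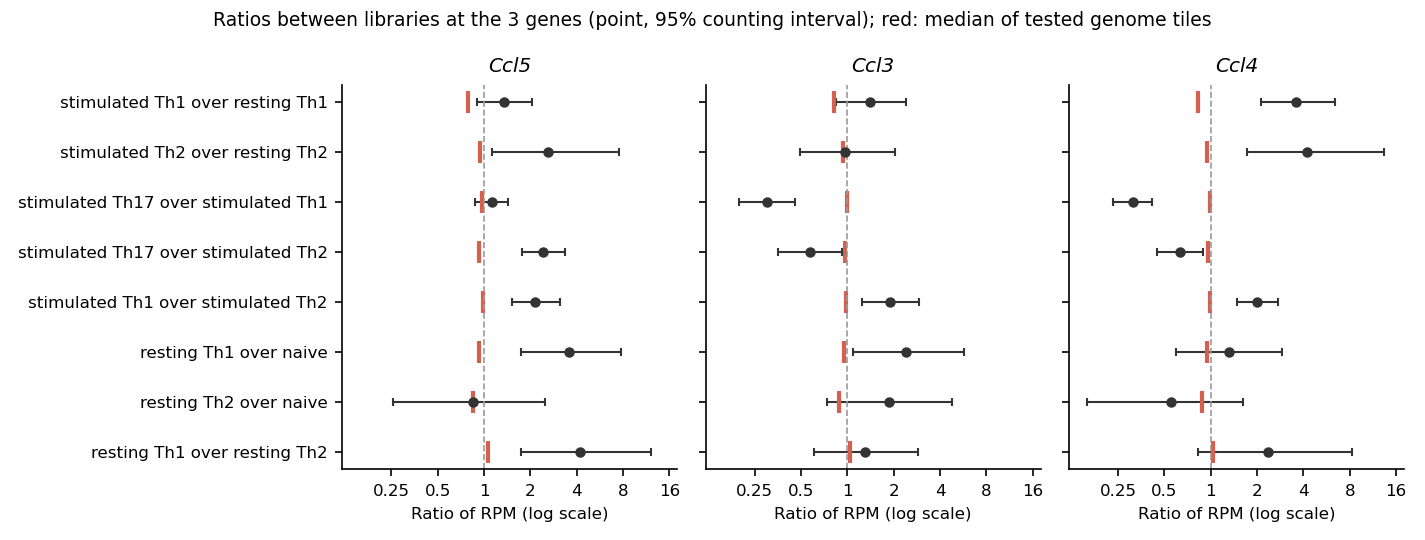
Ratios of RPM for the 3 gene neighbourhoods in 8 pairs of libraries on a log axis, with 95% exact intervals and the median of genome tiles of the same length. Ccl5 sits near 1 and Ccl3 and Ccl4 near 0.3 in stimulated Th17 over stimulated Th1, and Ccl4 is the highest of the genes in both comparisons of stimulation.

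The genes were also set against each other within the same pair of libraries, a comparison that no scaling of the libraries can move and that was added after the values were seen. In stimulated Th17 over stimulated Th1, the Ccl5 ratio was 3.57 times the Ccl4 ratio (2.43 to 5.27) and 3.68 times the Ccl3 ratio (2.27 to 6.05). In stimulated Th17 over stimulated Th2 these factors were 3.82 (2.39 to 6.15) and 4.21 (2.36 to 7.54). Ccl4 and Ccl3 did not separate there, with factors of 1.03 (0.617 to 1.74) over Th1 and 1.1 (0.61 to 2) over Th2. In stimulated Th1 over stimulated Th2 no pair of genes separated, with factors of 1.07 to 1.14. Stimulation parted the genes otherwise. In Th1 the Ccl4 ratio of stimulated to resting was 2.53 times that of Ccl3 (1.17 to 5.58), and in Th2 4.29 times (1.29 to 16.8). The Ccl5 ratio was 0.377 of the Ccl4 ratio in Th1 (0.183 to 0.749) and 0.624 in Th2 (0.142 to 2.61). Among the 24 factors computed, those of the 3 unstimulated pairs all had intervals that took in 1. Across the 6 BRG1 libraries Pearson's r of log2 RPM was 0.72 between Ccl4 and Ccl5, 0.52 between Ccl3 and Ccl4 and 0.30 between Ccl3 and Ccl5, given as a description, since the points share library and depth.

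At equal depth, with each BRG1 library thinned to 1340208 reads, 200 bp windows passed the calling rule in stimulated Th1 and Th2 only. The rule asks for more reads than a Poisson tail of 1e-05 allows, given the genome mean or the scaled local input, whichever was larger. Of 900 windows, 0 were called in stimulated Th17, against 0.0500% of windows genome-wide, 4 in stimulated Th1 against 0.106%, and 1 in stimulated Th2 against 0.0957%. None was called in resting Th1, resting Th2 or naive, where the genome-wide shares were 0.0599%, 0.0737% and 0.0251%. Another random thinning gave 1 window in stimulated Th17, 0 in stimulated Th2 and 1 in resting Th1. With all distinct reads the counts were 6 in stimulated Th17 (genome-wide 0.498%), 15 in stimulated Th1 cells (0.332%), 2 in stimulated Th2 (0.341%), 2 in resting Th1 (0.0828%), 0 in resting Th2 (0.0737%) and 0 in naive (0.0460%). The share of the cluster was then 0.667% in stimulated Th17 and 1.67% in stimulated Th1. The 5 windows called at equal depth stayed apart as 5 elements, and the windows called with all reads joined into 12. Reads that called an element are also counted in it, so its values are a description, and ratios are given only between libraries that both called it.

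Around Ccl5, elements lay in the gene body, at the start and before it. The element in the body, 83341601 to 83341800, lies 2.3 kb past the start and was called with all reads in stimulated Th17 and Th1, and at equal depth in stimulated Th1. It held 38 reads in stimulated Th17, 12 in stimulated Th1 cells, 4 in stimulated Th2, and 0 in resting Th1, resting Th2, naive and input. The stimulated Th17 reads fell on both strands, 16 on plus and 22 on minus. With repeats they numbered 61. Between the libraries that called it, stimulated Th17 over stimulated Th1 was 1.57 (0.804 to 3.3).

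Resting Th1, which had 34 reads at Ccl5 as a whole, had none in that element. A smaller element from 83340601 to 83340800 held 7 reads in stimulated Th17, 9 in stimulated Th1 cells, 2 in stimulated Th2, 1 in input and none in the unstimulated cells. The element over the start, 83343801 to 83344400, held 23 reads in stimulated Th17, 17 in stimulated Th1 cells, 4 in stimulated Th2, 3 in resting Th1, 0 in resting Th2, 0 in naive and 1 in input. It was called in stimulated Th17 and Th1. At equal depth the called part was 83344201 to 83344400, just before the start, and it was called in stimulated Th1 alone.

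The element 4.5 kb before Ccl5, 83348201 to 83348800, was again called in stimulated Th17 and Th1. It held 29 reads in stimulated Th17, 17 in stimulated Th1 cells, 3 in stimulated Th2, 3 in resting Th1, 1 in resting Th2, 3 in naive and 3 in input. Stimulated Th17 over stimulated Th1 was 0.847 there (0.45 to 1.64).

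3 further elements lay farther before Ccl5. The genes between Ccl5 and Ccl3 were not placed on mm9, so another gene may lie nearer to them. The element 19.9 kb before its start, 83363801 to 83364000, was called in each of the 3 stimulated libraries but in none of the rest, with 16 reads in stimulated Th17, 17 in stimulated Th1 cells, 16 in stimulated Th2, 4 in resting Th1, 2 in resting Th2, 1 in naive and 2 in input. Stimulated Th1 over stimulated Th2 was 1.16 (0.549 to 2.44), and stimulated Th17 over stimulated Th1 was 0.467 (0.221 to 0.983). The window beside it, 83363601 to 83363800, was called at equal depth in stimulated Th2. The element 10.7 kb before the start, 83354601 to 83354800, was called in resting Th1 alone, with 6 reads there and 1 or 2 in every other library. The element 38.5 kb before the start, 83382401 to 83382600, held 2 reads in stimulated Th17, 11 in stimulated Th1 and 3 in stimulated Th2, and 0 or 1 in every other library.

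**Figure D4:**
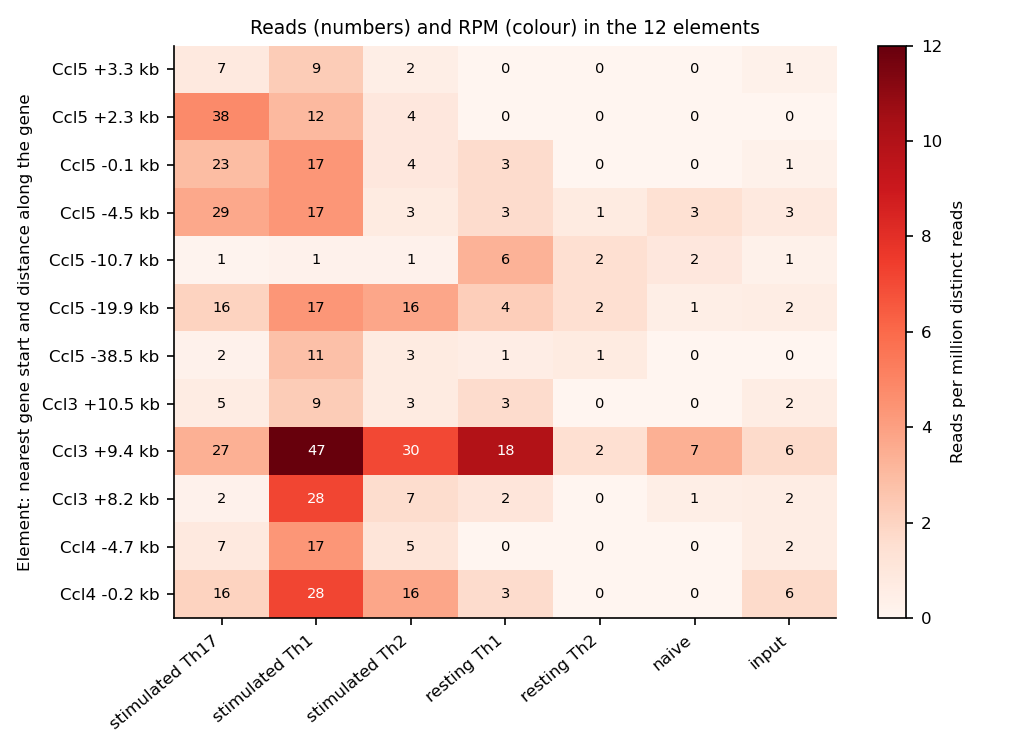
RPM in each of the 12 elements called with all distinct reads, by library. Elements are named by their distance in kb from the nearest start among Ccl5, Ccl3 and Ccl4 (positive past the start). The 4 elements within 5 kb of the start of Ccl5 are highest in stimulated Th17 and Th1, and the one 8.2 kb past the start of Ccl3 holds 28 reads in stimulated Th1 and 2 in stimulated Th17.

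An element high in stimulated Th1 lay 8.2 kb past the start of Ccl3, beyond the end of the gene. From 83454601 to 83455000 it held 2 reads in stimulated Th17, 28 in stimulated Th1 cells, 7 in stimulated Th2, 2 in resting Th1, 0 in resting Th2, 1 in naive and 2 in input. It was called in stimulated Th1 alone, and at equal depth the called window was 83454801 to 83455000, with 20 of those stimulated Th1 reads, 2 each in stimulated Th17 and Th2, 1 each in naive and input and 0 in the resting cells. Its neighbour from 83453001 to 83454200, 9.4 kb past the start, was called more widely. It was called in stimulated Th17, stimulated Th1, stimulated Th2 and resting Th1, with 27, 47, 30 and 18 reads, against 2 in resting Th2, 7 in naive and 6 in input. Stimulated Th1 over resting Th1 was 1.21 there (0.687 to 2.2), and stimulated Th1 over stimulated Th2 was 1.7 (1.06 to 2.79). Stimulated Th17 was lower, at 0.285 of stimulated Th1 (0.171 to 0.467) and 0.486 of stimulated Th2 (0.278 to 0.846). Another element, 83452401 to 83452600, held 5 reads in stimulated Th17, 9 in stimulated Th1 cells, 3 in stimulated Th2, 3 in resting Th1, 0 in resting Th2, 0 in naive and 2 in input. All 3 lie outside the counted neighbourhood of Ccl3.

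At Ccl4 the elements lay at the start and 4.7 kb before it. The element at the start, 83475601 to 83476000, held 16 reads in stimulated Th17, 28 in stimulated Th1 cells, 16 in stimulated Th2, 3 in resting Th1, 0 in resting Th2, 0 in naive and 6 in input. It was called in stimulated Th1 alone. The element before it, 83471201 to 83471400, held 7 reads in stimulated Th17, 17 in stimulated Th1 cells, 5 in stimulated Th2, none in the unstimulated cells and 2 in input. It too was called in stimulated Th1 alone, at both depths.

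**Figure D5:**
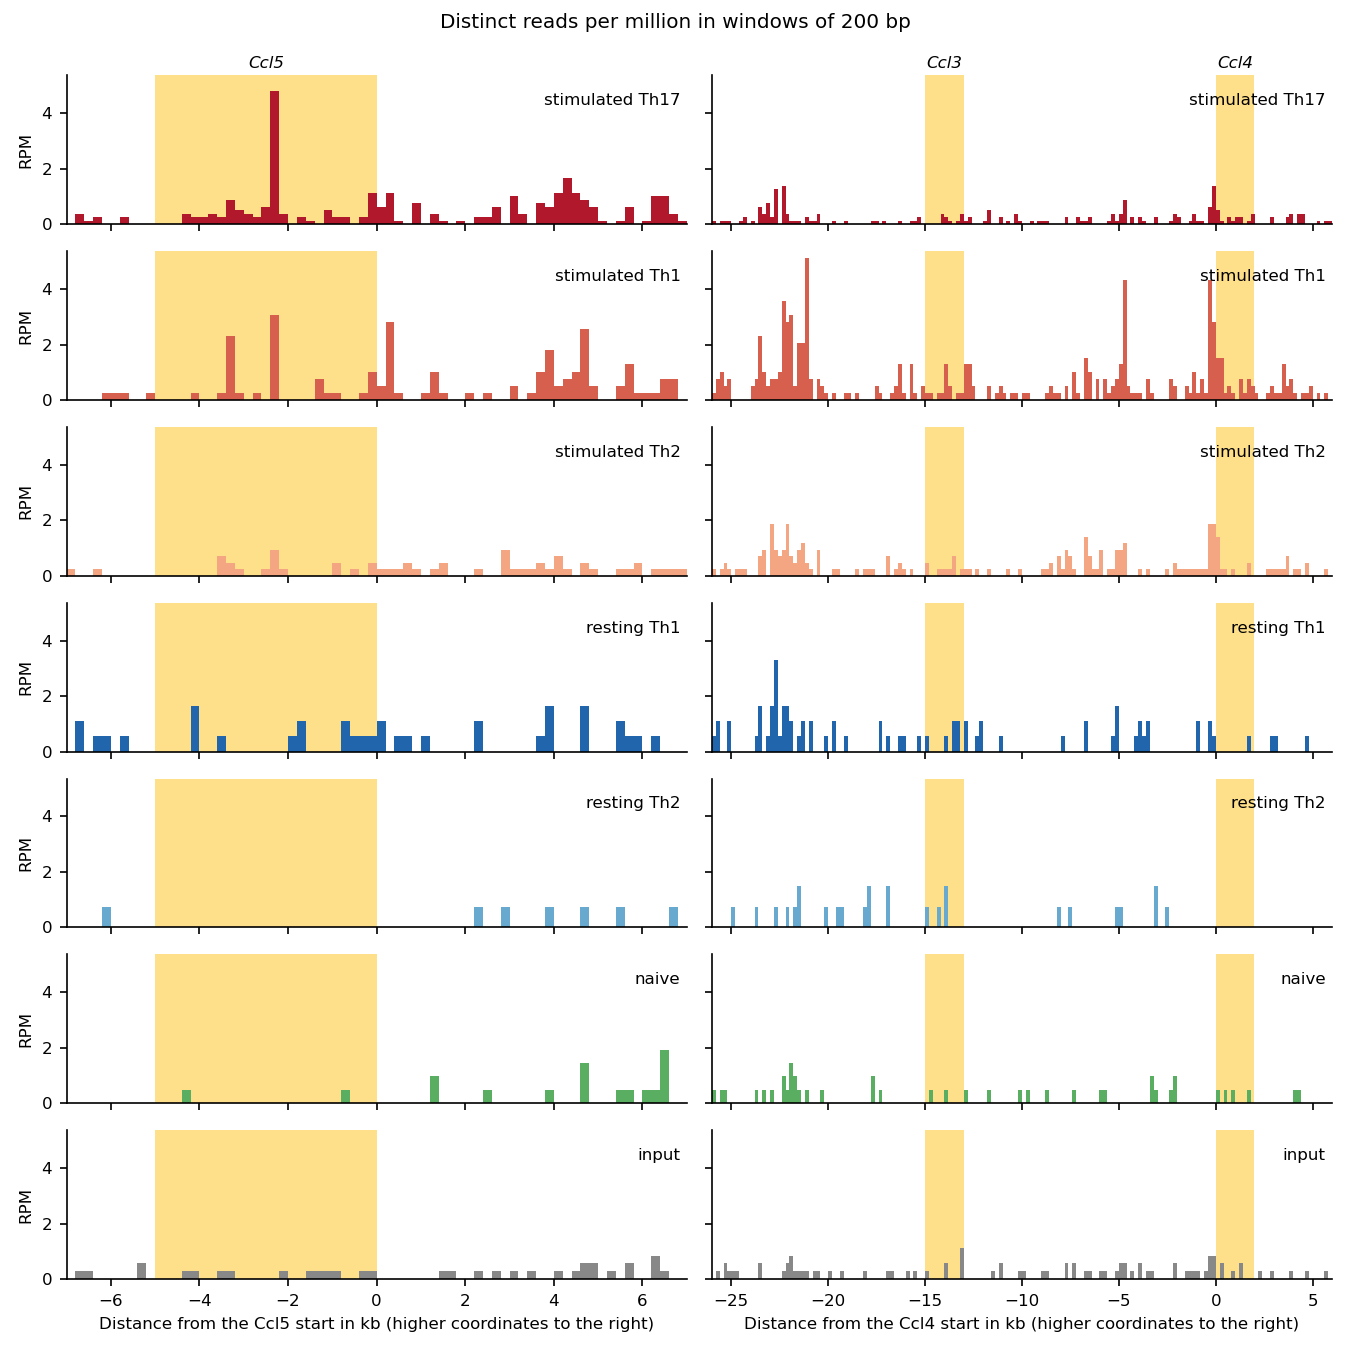
RPM in 200 bp windows around the 3 genes, by library, with distance from the start of Ccl5 (left panels) or Ccl4 (right panels) in kb on the x axis and coordinates that increase to the right. Around Ccl4, stimulated Th1 has windows of 17 reads at the start and 4.7 kb before it, and around Ccl5 the reads of stimulated Th17 peak 2.3 kb past the start, which lies to its left because Ccl5 is on the minus strand.

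The same comparisons were made bin by bin. A 1 kb bin was tested with at least 10 reads in the pair and called at a ratio of 3-fold or more whose interval left out 1. Pairs that have a library in common are not independent of each other. For stimulated Th17 over stimulated Th1, 0 of 52 tested bins were higher, against 6.96% genome-wide, and 13 were lower, against 3.14%. Of those 13, 12 lay between 83450001 and 83480000, the stretch with Ccl3 and Ccl4, and 1 at 83382001. The lowest was the bin at 83454001, with 5 reads in stimulated Th17 and 50 in stimulated Th1, a ratio of 0.0496 (0.0154 to 0.124). At equal depth 8 bins could be tested and 1 was lower, while the ratios of the whole neighbourhoods were 0.308 (0.12 to 0.7) at Ccl3 and 0.275 (0.127 to 0.546) at Ccl4.

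For stimulated Th17 over stimulated Th2, 2 of 38 bins were higher, against 7.11% genome-wide, and 4 lower, against 4.41%. The higher ones were those at 83341001, with 51 reads against 6 (4.59, 1.97 to 13.1), and 83348001, with 43 against 7 (3.32, 1.48 to 8.74), both at Ccl5. The lower ones lay at 83454001, 83468001, 83469001 and 83470001, between Ccl3 and Ccl4 or past Ccl3. At equal depth 0 bins were called in either direction. For stimulated Th1 over stimulated Th2, 7 of 32 bins were higher, against 2.02% genome-wide, and 0 lower, against 4.04%. They began at 83348001, 83382001, 83452001, 83454001, 83463001, 83471001 and 83477001, and so lay at all 3 genes and between them, while equal depth gave 2 higher bins.

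Stimulation gave 5 higher bins of 27 in Th1, a share close to the 16.7% of the genome, and 0 lower, against 1.97%. They were the bins at 83341001 in Ccl5 (13 reads against 0), at 83454001 past Ccl3 (50 against 5) and at 83471001 (26 against 1), 83475001 (33 against 5) and 83476001 (16 against 0) before and at the start of Ccl4. At equal depth 2 bins were higher, and relative to the median ratio below 2 were higher and 1 lower. In Th2, 2 of 9 bins were higher, against 8.29%, and 0 lower, against 2.13%: those at 83453001 (27 reads against 2) and 83475001 (19 against 0), and 1 was higher under either of those alternatives. The median ratio of tested bins in the genome was 1.62 for stimulation in Th1, a log2 shift of 0.69, and 1.31 in Th2, a shift of 0.39. It was 1.24 for stimulated Th17 over stimulated Th1, a shift of 0.31, 1.26 over stimulated Th2, a shift of 0.33, and 1.01 for stimulated Th1 over stimulated Th2.

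Few bins had enough reads in the unstimulated libraries. For resting Th1 over naive 1 of 3 was higher, against 10.0% genome-wide, and 0 lower, against 1.08%. For resting Th2 over naive 0 of 1 was higher, against 15.9%, and 0 lower, against 1.33%. For resting Th1 over resting Th2 1 of 4 was higher, against 1.65%, and 0 lower, against 5.05%. The bin was the same in the comparisons with a call, 83453001 past Ccl3, with 16 reads in resting Th1 against 4 in naive (4.58, 1.48 to 18.8) and 2 in resting Th2 (5.93, 1.39 to 53.2). Over the tested bins of the genome the median ratios were 1.38, 1.55 and 0.89 in the order of these comparisons, log2 values of 0.46, 0.63 and -0.17. In 10 kb bins without called windows the ratios were 0.918, 0.863 and 1.06.

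Over input, 6 of 30 tested bins in stimulated Th17 were higher than input, against 22.0% genome-wide, in stimulated Th1 16 of 32 against 42.7%, in stimulated Th2 3 of 15 against 39.4%, and in resting Th1 2 of 7 against 41.3%. In resting Th2 none of 2 was higher, against 45.0%, and in naive none of 2, against 25.0%. At the depth of the unstimulated libraries, 75 of the 180 bins held no read in resting Th1, 104 in resting Th2 and 78 in naive, against 9 in stimulated Th17, 26 in stimulated Th1 cells, 29 in stimulated Th2 and 23 in input. A lack of BRG1 in single bins of those 3 libraries was therefore not detectable.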

How the data were processed

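BRG1 ChIP-seq and input DNA were sequenced in 7 libraries of mouse CD4+ T helper cells, 1 per group. The authors deposited lists of aligned read positions with strand, 34 bases long, with no count, score or signal. They lie on mm9, per the submitters' processing notes: reads on chromosome 1 reach 197194862, past the last gene end of the GRCm38.p6 table, 195291439. No aligner or filter is given in the sources used here. Per the labels' protocols, chromatin was cut with micrococcal nuclease and sonication, and libraries had 18 PCR cycles and a size selection of 250 to 300 bases.

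From the deposited positions, chromosome Y and all but 1 read at each start and strand were removed, and 5′ ends were moved by 75 bp. Windows of 200 bp were called in libraries thinned to 1340208 reads, or with all reads, by a Poisson tail of 1e-05 over the highest background (genome mean, or scaled input in 1, 5 or 10 kb), and joined over gaps of 1 window. Ratios of RPM have conditional exact (Clopper-Pearson) intervals, and ratios between genes conditional odds ratio intervals; against a count of 0 the floor was 3 reads per library. Gene ratios are set beside those of all genome tiles of the same length with at least 10 reads in the pair. Depth was 1340208 to 7892944 distinct reads, so 1 gene neighbourhood held 5 to 223 reads. The members, motifs and lists were chosen with earlier results of these data known. All elements are named, since there were at most 15. Gene positions come from the rule that chose the members, and strands and starts from general knowledge, to the nearest kb. Promoter sequence is RefSeq's on GRCm38.p6. Alternatives covered repeated reads, depth, scaling, shift, grid, fold, minimum reads, threshold and flanks; leaving out the highest window of each gene was added after the data were seen. Python 3.11.15, numpy 2.4.6, scipy 1.17.1 and pandas 2.3.3 were used, and the steps were tested on simulated data.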

Additional observations from a re-analysis of the deposited data

Results flagged for a closer look

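In 3 cases a gene's ratio lay above 1 in Th1 and below 1 in Th2 under the same contrast, with 1 library on each side. Ccl5 in resting over naive cells was at 3.54 in Th1 (1.75 to 7.75) and 0.843 in Th2 (0.256 to 2.49), and both ratios use the naive library, so they differ by the ratio of resting Th1 to resting Th2, 4.2 (1.74 to 12.2). Ccl3 in stimulated over resting cells was at 1.41 in Th1 (0.848 to 2.42) and 0.97 in Th2 (0.495 to 2.04), which became 1.11 with repeated reads kept and 1.17 at equal depth; this difference between Th1 and Th2 was not tested. Ccl4 in resting over naive cells was at 1.31 in Th1 (0.599 to 2.9) and 0.552 in Th2 (0.156 to 1.62), which differ by 2.37 (0.83 to 8.28). With the median ratio of tested bins as scale the Th1 value was 0.952. Of these 6 intervals, the one of Ccl5 in Th1 leaves out 1.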

How the results depend on the processing

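Of the gene ratios under each alternative, 183 of 190 stayed within the counting interval of the reported value. The exceptions were Ccl5 in stimulated over resting Th1 with the median ratio of tested bins as scale (0.832), 3 with flanks of 2 kb and 3 with only the 10 kb before the gene start. With flanks of 2 kb Ccl5 was at 8.8 in stimulated over resting Th2 (1.46 to 360) and 16.3 in resting Th1 over resting Th2 (2.64 to 673). Ccl4 was then at 0 in resting Th2 over naive (0 to 2.34). With the 10 kb before the start Ccl5 was at 1.21 in resting Th1 over naive, Ccl3 at 2.83 in stimulated over resting Th2, and Ccl4 at 0.446 in stimulated Th17 over stimulated Th2. With 2 kb flanks Ccl4 gave no ratio where resting Th2 had 0 reads, against 43 reads in stimulated Th2 and 8 in resting Th1. Without the highest window of each gene, all 24 ratios stayed within their intervals. No ratio whose interval left out 1 changed direction under the alternatives run, but at equal depth the intervals took in 1 for Ccl3 in stimulated Th1 over stimulated Th2 (1.86), for Ccl3 and Ccl4 in stimulated Th17 over stimulated Th2 (0.571 and 0.579), for Ccl3 in resting Th1 over naive (2.33) and for Ccl5 in stimulated over resting Th2 (2.33). With the median scale they took in 1 for Ccl3 in resting Th1 over naive (1.75) and Ccl5 in stimulated over resting Th2 (2), and with flanks of 2 kb for Ccl3 in stimulated Th17 over stimulated Th2 (0.614). In the 10 kb before the start they took in 1 for Ccl5 in resting Th1 over resting Th2 (2.12), resting Th1 over naive (1.21) and stimulated over resting Th2 (1.71), and for Ccl3 in resting Th1 over naive (1.98).

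Counts of windows and bins were small and moved more: 17 of 30 window counts and 114 of 144 bin counts stayed within 1.5 times. A count of 0 that stayed at 0 was scored as unmoved, even where no bin could be tested. These shares therefore do not describe the counts above 0 alone. Called windows numbered 2 in stimulated Th17, 13 in stimulated Th1, 4 in resting Th1 and 1 in naive with all repeated reads kept; 6, 15, 2 and 2 in stimulated Th17, Th1, Th2 and resting Th1 with all distinct reads; 1 in stimulated Th1 cells and 0 in stimulated Th2 cells at a tail of 1e-07; and 1 in stimulated Th17, 0 in stimulated Th2 and 1 in resting Th1 with another random thinning. For stimulated over resting Th1 the bins were 8 higher and 1 lower with repeated reads, 2 higher at equal depth, 2 higher and 1 lower with the median scale, 3 higher with at least 20 reads and 1 lower with bins moved by 500 bp. For stimulated over resting Th2 they were 4 higher with repeated reads and 1 higher at equal depth, with the median scale, with at least 20 reads and with moved bins. For stimulated Th17 over stimulated Th1 the 13 lower bins became 1 at equal depth, where 8 bins were tested, and 5 with at least 20 reads, and moved bins gave 1 higher. For stimulated Th17 over stimulated Th2 there were 0 higher and 0 lower at equal depth, 1 higher with the median scale, 1 lower with at least 20 reads and 9 lower with no minimum. For stimulated Th1 over stimulated Th2 there were 2 higher at equal depth and 3 with moved bins. Resting Th1 over naive had 5 higher with repeated reads, 2 with moved bins and 4 with no minimum. Resting Th2 over naive had 1 higher with repeated reads, with moved bins and with no minimum, and resting Th1 over resting Th2 had 2 with repeated reads and 0 with at least 20 reads. Thinning and higher minimums leave fewer bins to test; the cause of the other changes was not tested. No paired analysis was possible because each group has 1 library. Depth limits the unstimulated libraries most, since 1 read is 0.746 RPM in resting Th2 and 0.127 RPM in stimulated Th17.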
